A study of Mus musculus with 20 samples.

Results

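The replication-dependent histone genes are the 55 genes whose GENCODE M21 symbol begins with Hist1h, Hist2h, Hist3h or Hist4h and whose level averaged at least 1 TPM (a share of the library's transcripts, scaled for transcript length) over the 20 libraries. The deposited table holds 46078 genes and 68 of them have such a symbol; the other 13 stayed under 1 TPM and 8 of those were listed at 0 in every library. The 55 genes comprise 5 of 6 linker histone H1 genes, 14 of 20 H2A genes, 13 of 17 H2B genes, 10 of 12 H3 genes and all 13 H4 genes. Just above the limit stood Hist1h3h (1.33 TPM), Hist1h4b (1.16 TPM) and Hist2h3c2 (1.02 TPM), and just below it Hist1h2af (0.858 TPM), Hist2h2ab (0.584 TPM) and Hist1h1t (0.0705 TPM). The rule used the mean level over all libraries and no difference between groups.

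The libraries were made from LSK cells, the lineage-negative, Kit-positive and Sca-1-positive bone marrow fraction that holds blood stem and early progenitor cells, sorted from C57Bl/6J mice aged 3 to 4 months. Each of the 5 groups had 4 pools of 2 mice. The Idh1R132H group was Idh1LSL-R132H/+;Vav-Cre, the Idh2R140Q group Idh2LSL-R140Q/+;Vav-Cre and the Idh2R172K group Idh2LSL-R172K/+;Vav-Cre, each 1 mutant allele switched on by Cre recombinase under the blood cell promoter Vav. The Tet2KO group was Tet2-/-, with no Cre named, so it lacks the Vav-Cre transgene that the WT group (+/+;Vav-Cre) and the 3 Idh groups share, as far as the labels go. Mutant IDH1 and IDH2 make 2-hydroxyglutarate, a metabolite that inhibits TET2 and other dioxygenases, so the design sets 3 Idh alleles and loss of Tet2 beside one another.

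Replication-dependent histone genes supply the nucleosome proteins of newly copied DNA and are switched on as cells enter S phase, through NPAT at clusters of histone genes. Their mRNAs have no introns and normally no poly(A) tail. They end just after a short stem-loop, which the stem-loop binding protein SLBP holds and beside which the U7 snRNP guides the cut, and they are destroyed when DNA synthesis stops. Most histone genes can also yield some polyadenylated mRNA from sites further downstream, which a library of total RNA and a library of poly(A) RNA would count to different extents. The labels name total RNA as the molecule, and the step that selected RNA for sequencing is not given in the sources used here.

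The stem-loop was searched for as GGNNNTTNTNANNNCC, 16 bases in which the last NNN pairs with the first, on the sense strand of each annotated transcript after its stop codon. It was found in 40 of the 55 genes, starting 21 to 54 bases after the stop codon (median 31.5). In the 100 bases after the stop codon it was found in 40 of the 53 protein-coding members, against 6 of 21697 other coding genes (0.0277%). Of the 15 members with no match, 10 have annotated models that end within 20 bases of the stop codon, so the window holds no such letters. The sequences below belong to the genes described in the results; the 16 stem-loop bases are in capitals and the coordinates are those of GRCm38.
Hist1h4d (chr13:23581945-23581970, plus strand): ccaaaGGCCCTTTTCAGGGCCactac
Hist1h2ae (chr13:23570663-23570688, minus strand): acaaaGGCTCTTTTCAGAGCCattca
Hist1h1e (chr13:23621777-23621802, minus strand): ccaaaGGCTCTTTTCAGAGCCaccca
Hist1h1c (chr13:23739507-23739532, plus strand): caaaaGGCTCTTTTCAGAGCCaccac
Hist1h2bg (chr13:23571838-23571863, plus strand): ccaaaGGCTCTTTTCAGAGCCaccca
Hist1h2bf (chr13:23573760-23573785, minus strand): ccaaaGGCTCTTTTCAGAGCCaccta
Hist1h3d (chr13:23576239-23576264, plus strand): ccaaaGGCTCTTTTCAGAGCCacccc
Hist1h3e (chr13:23561898-23561923, minus strand): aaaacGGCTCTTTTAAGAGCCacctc
Hist1h4h (chr13:23531453-23531478, plus strand): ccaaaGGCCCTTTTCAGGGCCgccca
Hist1h4i (chr13:22040961-22040986, minus strand): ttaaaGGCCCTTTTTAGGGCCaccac

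The stem differed by class. The form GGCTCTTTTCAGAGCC was found in 21 members, 3 of H1, 8 of H2A, 6 of H2B and 4 of H3, and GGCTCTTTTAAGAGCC in 2 of H2B and 3 of H3. The form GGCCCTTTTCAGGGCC was found in 7 members and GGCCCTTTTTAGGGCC in 2, all 9 of them H4 genes. A further 2 H4 genes carried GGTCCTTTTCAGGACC. Hist1h2bc, an H2B gene that differed between groups, gave no match in its annotated model.

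How far a gene's annotated model runs past the stem-loop varied widely. In 20 of the 40 genes it ran more than 100 bases past, as in Hist1h4d (770 bases), Hist1h1e (1153), Hist1h3d (752) and Hist1h2ac (2010), and in the other 20 it stopped within 100 bases, as in Hist1h2bf (29), Hist1h4h (46) and Hist1h4m (3). TPM divides by that annotated length, so levels set side by side between genes rest on it.

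The 55 genes lie in 4 clusters. The Hist1 cluster on chromosome 13 holds 47 of them (chr13:21715763-23764406 in GRCm38), the Hist2 cluster on chromosome 3 holds 4, the Hist3 cluster on chromosome 11 holds 3, and Hist4h4 stands alone on chromosome 6. Within the clusters, 10 pairs of an H2A and an H2B member face away from each other with their starts at most 301 bases apart, so each pair shares one upstream region. The levels of the pair's members differed by 1.02-fold to 7.55-fold (median 1.78-fold), with the H2A gene higher in 6 of the 10 pairs. The 7.55-fold is that of Hist3h2a over Hist3h2bb-ps, a pseudogene by its symbol. Hist3h2a also shares 708 exon bases with Trim17 on the same strand.

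Promoters of 47 members were matched in RefSeq (GRCm38.p6), each as 250 bases before to 50 after the start. Searched on both strands, CCAAT, the letters bound by the factor NF-Y, occurred in all matched promoters of H1 (5), H2A (12), H2B (10) and H3 (8) genes and in 3 of 12 of H4 genes, against 37.4% of the 32851 promoters in the RefSeq table. TATAA, the core of the TATA box, occurred in 39 of the 47, against 24.9% of all. The octamer ATTTGCAT, known from H2B promoters, occurred in 6 H2A and 4 H2B promoters, against 1.74% of all, and the Hist1h2ac window printed below, which holds it, reaches the start of Hist1h2bc. GGTCCG, part of the H4 element that the factor HINFP binds, occurred in 11 of 12 H4 promoters and 1 H3 promoter, against 8.25% of all. AAACACA, the H1 box, occurred in 4 H1 promoters and 1 H2A promoter, against 7.18% of all.

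Printed below are 4 promoters, chosen because their genes are the most abundant member (Hist1h4d), the member with the smallest p in Tet2KO against WT (Hist1h3d), and the windows between Hist1h2bg and Hist1h2ae and between Hist1h2ac and Hist1h2bc. The 5 motifs, on either strand and merged where they overlap, are in capitals. A match of letters does not show binding.
Hist1h4d (chr13:23581318-23581617, plus strand): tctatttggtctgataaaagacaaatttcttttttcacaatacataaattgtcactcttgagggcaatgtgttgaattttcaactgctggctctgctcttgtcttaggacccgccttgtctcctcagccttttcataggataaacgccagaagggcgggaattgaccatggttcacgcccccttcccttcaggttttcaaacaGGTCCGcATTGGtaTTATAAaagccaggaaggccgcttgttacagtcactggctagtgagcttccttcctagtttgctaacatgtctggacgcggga
Hist1h3d (chr13:23575513-23575812, plus strand): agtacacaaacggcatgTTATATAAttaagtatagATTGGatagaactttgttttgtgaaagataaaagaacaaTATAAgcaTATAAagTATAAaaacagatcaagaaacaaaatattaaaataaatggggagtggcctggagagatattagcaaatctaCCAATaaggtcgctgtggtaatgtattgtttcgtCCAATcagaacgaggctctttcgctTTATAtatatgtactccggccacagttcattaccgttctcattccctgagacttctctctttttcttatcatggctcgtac
Hist1h2bg (chr13:23571150-23571449, plus strand): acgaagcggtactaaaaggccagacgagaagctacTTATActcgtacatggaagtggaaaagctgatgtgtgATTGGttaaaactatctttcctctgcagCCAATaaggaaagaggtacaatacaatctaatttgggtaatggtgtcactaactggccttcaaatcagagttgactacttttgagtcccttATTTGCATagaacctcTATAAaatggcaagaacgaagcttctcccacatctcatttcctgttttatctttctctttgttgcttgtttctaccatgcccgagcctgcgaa
Hist1h2ac (chr13:23683910-23684209, minus strand): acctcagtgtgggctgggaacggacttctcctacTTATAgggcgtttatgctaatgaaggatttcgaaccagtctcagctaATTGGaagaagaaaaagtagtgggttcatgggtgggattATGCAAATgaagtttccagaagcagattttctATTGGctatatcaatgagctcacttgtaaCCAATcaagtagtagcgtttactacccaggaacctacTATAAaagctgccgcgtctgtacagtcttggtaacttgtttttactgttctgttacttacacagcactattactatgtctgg

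Reads assigned to genes, worked back from the TPM values and transcript lengths, came to 35.1 to 45.0 M reads per library (median 39.2 M). Of the genes that define the sort, Kit averaged 402 TPM in Idh1R132H, 430.1 in Idh2R140Q, 590.4 in Idh2R172K, 330.1 in Tet2KO and 391 TPM in WT, and without Tet2KO pool 2, the lowest at 97.9 TPM, and pool 4 of the other groups it averaged 408 TPM in Tet2KO and 378 TPM in WT. Ly6a, which encodes Sca-1, averaged 195 TPM in Idh1R132H, 164 in Idh2R140Q, 130.3 in Idh2R172K, 292 in Tet2KO and 168 TPM in WT. Of 9 T and NK genes 6 averaged under 1 TPM (Cd3d, Cd3e, Cd3g, Cd8a, Gzma and Ncr1), while Nkg7 stood at 702 to 973 TPM. Of 10 B lineage genes 3 averaged under 1 TPM (Pax5, Ebf1 and Ms4a1), while Cd79b stood at 22.3 to 40.0 TPM in Idh2R172K and 81.8 to 95.5 TPM in WT. Of 10 mature neutrophil genes only Mmp9 did, and their sum reached 401 TPM in 1 Idh2R140Q library, against 40.3 to 108 TPM in WT. Tet2 stood at 5.74 to 12.1 TPM in the 4 Tet2KO libraries and at 6.67 to 9.23 TPM in the 4 WT libraries. The deleted part of Tet2 is not given in the sources used here, so a whole-gene level does not check that label. Idh2 stood at 887 to 1024 TPM in Idh2R172K libraries, above all other libraries (470 to 647 TPM). 5 libraries stood apart. Pool number 4 of the 3 Idh groups and of WT had 7.55 to 8.13% of its TPM on Gm23935, a ribosomal RNA-like gene, against 11.0 to 13.5% in pools 1 to 3 of these groups, and Tet2KO pools ranged from 9.57 to 20.0%, the highest in pool 2. Results are therefore given with all libraries and, where they differ, without these 5.

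The 55 genes together made up 0.155 to 0.289% of each library's TPM, and a single gene, Hist1h4d, made up 30.3 to 52.2% of that sum (median 46.8%). The 4 members with a mean of at least 100 TPM held 65.3% of the sum, 20 members between 10 and 100 TPM held 28.2% and 31 members between 1 and 10 TPM held 6.50%. Without Hist1h4d, the other 12 H4 genes summed to 106 to 198 TPM per library.

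**Figure D1:**
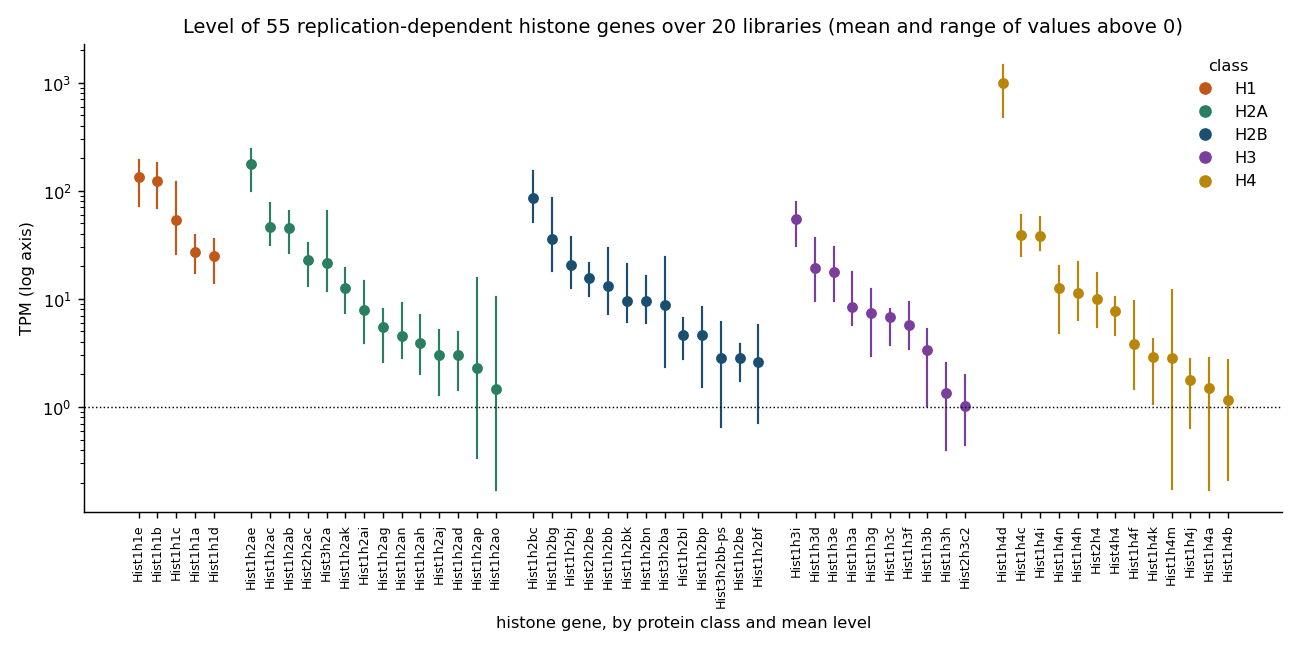
Mean TPM over the 20 libraries of each of the 55 replication-dependent histone genes, by class, on a log axis; lines span the lowest to the highest library above 0 and the dotted line marks 1 TPM. Hist1h4d (999 TPM) stands far above every other member, and the 31 members between 1 and 10 TPM fill the lower part of each class but H1.

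Among the H1 genes, which encode linker histones that bind DNA between nucleosomes, Hist1h1e (mean 133 TPM) and Hist1h1b (123 TPM) led. Hist1h1e (ENSMUSG00000051627, chr13:23620629-23622558) had 162, 171, 123 and 87.6 TPM in Idh1R132H pools 1 to 4, 156, 138, 117 and 72.5 TPM in Idh2R140Q, 177, 191, 175 and 92.2 TPM in Idh2R172K, 94.5, 142, 106 and 111 TPM in Tet2KO, and 146, 164, 141 and 86.4 TPM in WT. Pool 4 was the lowest in each group but Tet2KO, and the groups overlapped. Hist1h1e shares 496 exon bases with Hist1h2be on the same strand, so reads there could be counted for either gene. Hist1h1b (ENSMUSG00000058773, chr13:21779883-21780625) had 168, 172.3, 145 and 89.5 TPM in Idh1R132H, 158, 132.5, 143 and 72.3 TPM in Idh2R140Q, 124, 122, 138 and 79.1 TPM in Idh2R172K, 76.2, 118, 89.6 and 69.8 TPM in Tet2KO, and 131.7, 181, 150.0 and 89.8 TPM in WT. Its mean was lowest in Tet2KO, 88.3 ± 21.2 TPM against 138 ± 38.2 TPM in WT (SD, n = 4), and the groups overlapped.

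Among the H2A and H2B genes, whose proteins pair as dimers in the nucleosome, Hist1h2ae (176 TPM) and Hist1h2ac (46.2 TPM) led H2A, and Hist1h2bc (85.4 TPM) and Hist1h2bg (36.1 TPM) led H2B. Hist1h2ae (ENSMUSG00000069272, chr13:23570517-23571220) averaged 176 ± 39.7 TPM in Idh1R132H, 168 ± 57.6 in Idh2R140Q, 169 ± 51.4 in Idh2R172K, 184 ± 48.7 in Tet2KO and 181 ± 48.9 TPM in WT (SD, n = 4), means closer together than the spread within any group. Hist1h2ac averaged 44.1 ± 9.03 TPM in Idh1R132H, 47.6 ± 13.9 in Idh2R140Q, 46.5 ± 11.8 in Idh2R172K, 57.9 ± 13.8 in Tet2KO and 34.8 ± 3.62 TPM in WT. All 4 Tet2KO libraries of Hist1h2ac (43.5, 76.7, 56.0 and 55.4 TPM) stood above all 4 WT libraries (32.2, 38.7, 31.3 and 37.1 TPM), with an adjusted p of 0.0595 that missed the threshold of 0.05. Hist1h2ac shares 108 exon bases on the same strand with Gm24991, annotated as an rRNA gene, so reads there could be counted for either gene.

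Among the H3 and H4 genes, whose proteins form the tetramer at the nucleosome's core, Hist1h3i (55.2 TPM) and Hist1h3d (19.2 TPM) led H3, and Hist1h4d (999 TPM) and Hist1h4c (38.6 TPM) led H4. Hist1h4d (ENSMUSG00000061482, chr13:23581598-23582735) had 1230.2, 1227, 966 and 590.5 TPM in Idh1R132H, 1164, 1075, 959.5 and 484 TPM in Idh2R140Q, 1101, 1163, 1030.2 and 606 TPM in Idh2R172K, 858, 1222, 868 and 1011 TPM in Tet2KO, and 1274, 1449, 1099 and 605 TPM in WT. Again pool 4 was low in the 4 groups other than Tet2KO, and the groups overlapped. Hist1h3i averaged 61.1 ± 11.9 TPM in Idh1R132H, 55.3 ± 14.1 in Idh2R140Q, 51.6 ± 14.4 in Idh2R172K, 53.5 ± 17.0 in Tet2KO and 54.3 ± 13.8 TPM in WT, and Hist1h4c 39.7 ± 8.58, 38.4 ± 4.29, 34.7 ± 4.91, 40.1 ± 14.9 and 39.9 ± 7.66 TPM in the same order. Over the 4 WT libraries the coefficient of variation of a member had a median of 24.9%, and ran between 2.40% for Hist1h3c and 117% for Hist1h4m.

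Summed by class over all libraries, no mutant group stood apart from WT. The H1 sum averaged 383 ± 44.8 TPM in Idh1R132H, 360.5 ± 36.8 in Idh2R140Q, 375 ± 53.2 in Idh2R172K, 316 ± 62.3 in Tet2KO and 372 ± 53.7 TPM in WT (SD, n = 4). The H2A sum averaged 356 ± 58.1, 345 ± 70.6, 345 ± 79.8, 387 ± 90.8 and 345 ± 69.8 TPM in these groups, and the H2B sum 203 ± 44.5, 226 ± 33.0, 176 ± 17.1, 275 ± 77.9 and 199 ± 38.5 TPM. The H3 sum averaged 126 ± 13.4, 124 ± 13.6, 125 ± 23.0, 143 ± 40.2 and 113 ± 17.7 TPM, and the H4 sum 1135 ± 305, 1049.7 ± 303, 1104 ± 259.7, 1136 ± 208 and 1233 ± 372 TPM. In every class each mutant group's libraries overlapped those of WT. In Tet2KO the overlap rested on Tet2KO pool 2 alone for H1, on WT pool 4 alone for H2B, and on both for H4. Without the 5 libraries that stood apart, the H1 sum was 259 to 304 TPM in Tet2KO and 352 to 446 TPM in WT (means 287 ± 24.3 and 390.3 ± 49.1 TPM, n = 3 each), and the libraries did not overlap. The H4 sum was then 963 to 1160 TPM in Tet2KO and 1222 to 1585 TPM in WT, again without overlap, and the H2B sum was 212 to 285 TPM in Tet2KO and 168 to 204 TPM in WT, higher in every Tet2KO library. For H1 and H4 the omission took out the highest Tet2KO library and the lowest WT library, so it widened the gap by its choice of libraries. Tet2KO pool 4 was kept. With this omission 31.8% of all genes were called in Tet2KO against WT. The H2A and H3 sums in Tet2KO, and all 5 sums in the 3 Idh groups, still overlapped WT. The sum of all 55 averaged 2202 ± 373 TPM in Idh1R132H, 2106 ± 385 in Idh2R140Q, 2126 ± 405 in Idh2R172K, 2256 ± 473 in Tet2KO and 2263 ± 476 TPM in WT. In bulk RNA a change in the share of cells in S phase and a change in the histone RNA of each cell cannot be told apart.

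**Figure D2:**
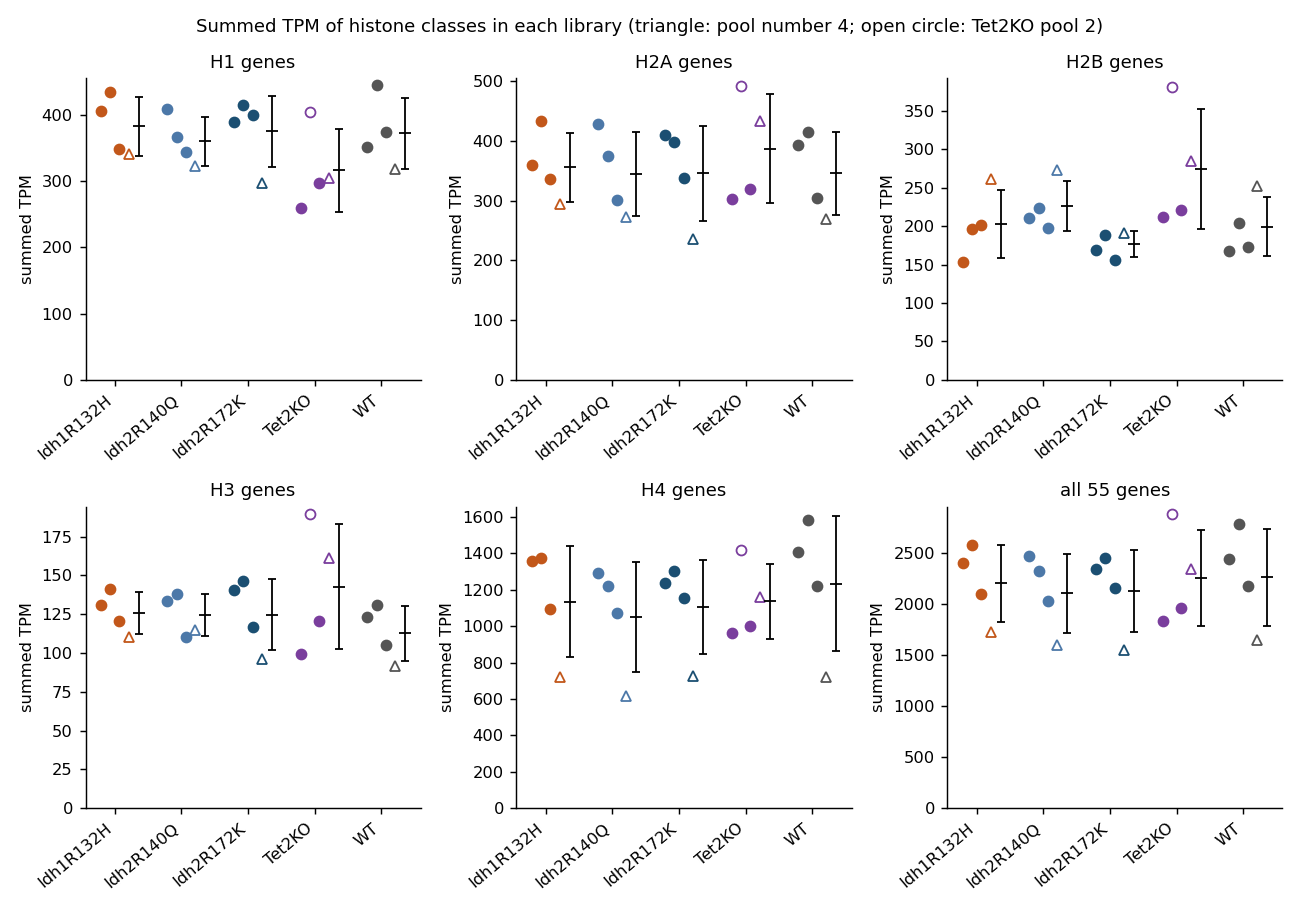
Summed TPM of the members of each histone class in every library, by group; triangles are pool number 4, the open circle is Tet2KO pool 2 and black bars are the mean ± SD (n = 4). The H4 sum averages 1136 TPM in Tet2KO and 1233 TPM in WT, the groups overlap in every class when all libraries are counted, and pool 4 of the Idh groups and WT is the lowest of its group in H1, H2A and H4.

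Against WT, few members differed: the H3 genes Hist1h3d and Hist1h3e in Tet2KO and Idh2R172K cells and the H2B gene Hist1h2bc in Tet2KO cells, all higher. 1 fit over all 5 groups with limma on log2(TPM + 1) tested 14176 genes, and a member was called at a Benjamini-Hochberg adjusted p under 0.05 over all of them. In Idh1R132H cells 0 of the 55 members were called, where 0.00705% of all genes were, and 1 member passed an unadjusted p of 0.05, against 1.62% of all genes. In Idh2R140Q cells 0 of the 55 were called, where 0% of all genes were, and 4 passed an unadjusted p of 0.05, against 2.87% of all genes. In Idh2R172K cells 2 members were called, both higher, where 15.4% of all genes were called, 8.03% higher and 7.33% lower. In Tet2KO cells 3 members were called, all higher, where 7.05% of all genes were called, 5.02% higher and 2.02% lower. The members' share is below the background in Idh2R172K cells and close to it in Tet2KO cells.

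The medians of the members stood near 0. The median log2 difference of the 55 was 0.04 in Idh1R132H cells (0.04 over all genes), 0.03 in Idh2R140Q (0.08), 0.02 in Idh2R172K (0.11) and 0.10 in Tet2KO (0.02). Of the 55, 32 lay above 0 in Idh1R132H, 30 in Idh2R140Q, 28 in Idh2R172K and 35 in Tet2KO, where 65.0%, 71.6%, 63.1% and 52.8% of all genes did in these groups. With quantile scaling the medians were -0.01, -0.12 and -0.09 in the 3 Idh groups and 0.07 in Tet2KO, so the sign of the Idh medians rests on the scaling. The standard error of a member's log2 difference was 0.13 to 0.58 (median 0.24).

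**Figure D3:**
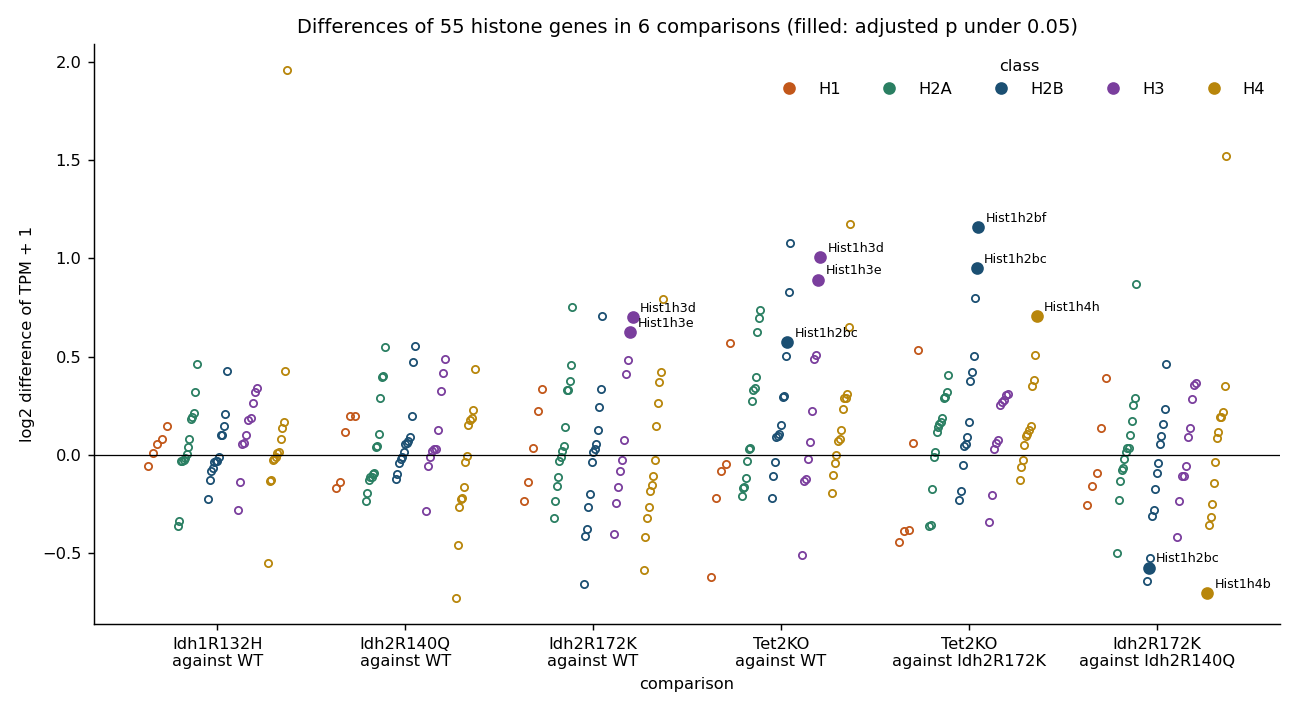
Log2 difference of each of the 55 genes in 6 comparisons, the first-named group minus the second, by class; filled points have an adjusted p under 0.05. Most points lie near 0, and the filled points are Hist1h3d and Hist1h3e against WT and Hist1h2bc, Hist1h2bf, Hist1h4h and Hist1h4b in the other comparisons, with Hist1h2bc also called in Tet2KO against WT.

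Hist1h3d rose in Tet2KO and in Idh2R172K cells. This H3 gene (ENSMUSG00000099583, chr13:23575763-23577011) had 21.6, 28.8, 22.3 and 36.5 TPM in Tet2KO, 27.5, 22.3, 18.6 and 18.4 TPM in Idh2R172K, and 15.1, 12.6, 9.48 and 14.7 TPM in WT. Every Tet2KO and every Idh2R172K library stood above every WT library. The log2 difference from WT was 1.01 ± 0.17 in Tet2KO (SE; adjusted p = 0.00561) and 0.70 ± 0.17 in Idh2R172K (adjusted p = 0.00856). These comparisons share the WT libraries. Fitting only the Tet2KO and WT libraries ended the call in Tet2KO (adjusted p = 0.0778) and quantile scaling ended it in Idh2R172K (adjusted p = 0.0896). In the other mutants Hist1h3d had 15.1, 17.0, 15.1 and 18.7 TPM in Idh1R132H and 17.1, 18.4, 15.3 and 19.0 TPM in Idh2R140Q, with log2 differences of 0.34 ± 0.17 (unadjusted p = 0.0641) and 0.42 ± 0.17 (unadjusted p = 0.0260). All 4 Idh2R140Q libraries stood above the highest WT library, and neither difference was called.

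Hist1h3e, another H3 gene of the same cluster (ENSMUSG00000069273, chr13:23561534-23562369), had 15.3, 30.0, 22.3 and 30.2 TPM in Tet2KO, 20.5, 24.0, 15.1 and 19.2 TPM in Idh2R172K, and 14.5, 15.6, 9.48 and 10.5 TPM in WT. The lowest library of each mutant group fell below the highest WT library, so both overlapped WT. It rose by 0.89 ± 0.20 on the log2 scale in Tet2KO (adjusted p = 0.0179) and by 0.62 ± 0.20 in Idh2R172K (adjusted p = 0.0447). The Idh2R172K call ended in 21 alternatives. The Tet2KO call ended in 4 alternatives: without Tet2KO pool 4 (adjusted p = 0.0592), without WT pool 3 (0.0678), without all number 4 libraries (0.0914) and in a fit of these groups only (0.131). Of the 50-base stretches of Hist1h3e, 26.6% occur in no other annotated gene, against 75.2% for Hist1h3d, so reads of near-identical H3 genes may be split among them. Only 188 reads per library stood behind Hist1h3e on average, and 303 behind Hist1h3d.

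Hist1h2bc, the most abundant H2B gene (ENSMUSG00000018102, chr13:23684199-23692908), lay on opposite sides of WT in Tet2KO and Idh2R172K cells. It had 103, 153, 94.4 and 126 TPM in Tet2KO, 60.1, 74.2, 51.8 and 56.6 TPM in Idh2R172K, and 67.7, 76.2, 69.6 and 105 TPM in WT. The lowest Tet2KO library stood above the highest Idh2R172K library, and both groups overlapped WT. Tet2KO exceeded WT by 0.57 ± 0.16 on the log2 scale (adjusted p = 0.0424), a call that ended in 13 alternatives, among them leaving out any 1 of Tet2KO pools 2 and 4 or of WT pools 1 to 3. Idh2R172K differed from WT by -0.38 ± 0.16 (adjusted p = 0.131), which was not called. In the other groups it had 66.7, 66.5, 83.1 and 93.3 TPM in Idh1R132H and 95.1, 89.6, 88.5 and 87.7 TPM in Idh2R140Q.

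The direct comparison of Tet2KO with Idh2R172K cells called 3 members, all higher in Tet2KO, where 26.8% of all genes were called, 11.9% higher and 14.9% lower. Hist1h2bc was higher by 0.95 ± 0.16 on the log2 scale (adjusted p = 0.000456), and its call held in every alternative run. Hist1h2bf, another H2B gene (ENSMUSG00000069268, chr13:23573736-23574196), had 2.17, 5.76, 3.62 and 3.67 TPM in Tet2KO, 1.74, 0.890, 0.712 and 1.09 TPM in Idh2R172K, and 2.83, 2.72, 2.11 and 1.59 TPM in WT. Its Tet2KO and Idh2R172K libraries did not overlap, and the log2 difference of 1.16 ± 0.23 (adjusted p = 0.00142) held in every alternative run. Hist1h4h, an H4 gene (ENSMUSG00000060981, chr13:23531050-23531519), had 12.7, 21.9, 12.1 and 11.9 TPM in Tet2KO, 8.93, 10.8, 6.41 and 7.62 TPM in Idh2R172K, and 11.9, 11.5, 10.4 and 12.0 TPM in WT. The Tet2KO and Idh2R172K libraries again did not overlap, with a log2 difference of 0.71 ± 0.19 (adjusted p = 0.0114), which ended in a fit of these groups alone (adjusted p = 0.0919). Neither gene was called against WT: Hist1h2bf differed by 0.50 ± 0.23 in Tet2KO (adjusted p = 0.166) and -0.66 ± 0.23 in Idh2R172K (adjusted p = 0.0579), and Hist1h4h by 0.29 ± 0.19 (adjusted p = 0.334) and -0.42 ± 0.19 (adjusted p = 0.146). limma-voom on rebuilt counts moved the median of all genes in this comparison by 0.13 on the log2 scale. Hist1h2bf rests on 15.3 reads per library and 34.2% unshared 50-base stretches, and Hist1h4h on 68.1 reads.

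The comparison of the Idh2 alleles, Idh2R172K against Idh2R140Q, called 2 members, both lower in Idh2R172K, where 10.5% of all genes were called, 3.76% higher and 6.74% lower. Hist1h2bc fell by 0.58 on the log2 scale (SE 0.16; adjusted p = 0.0273), and no Idh2R172K library (51.8 to 74.2 TPM) reached the lowest Idh2R140Q library (87.7 TPM). Hist1h4b, an H4 gene at the edge of detection (ENSMUSG00000069266, chr13:23757013-23757409), had 0.367, 0.827, 1.03 and 0.211 TPM in Idh2R172K and 2.73, 1.41, 1.04 and 1.38 TPM in Idh2R140Q. The groups did not overlap, though by little, and the log2 difference was -0.71 ± 0.22 (adjusted p = 0.0495). Hist1h4b had 5.90 reads per library on average and overlaps an antisense gene, 4930558J22Rik, over 223 exon bases. Strandedness of the counting is not given in the sources used here, so their reads cannot be told apart. The Hist1h2bc call ended in 9 alternatives and the Hist1h4b call in 25.

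**Figure D4:**
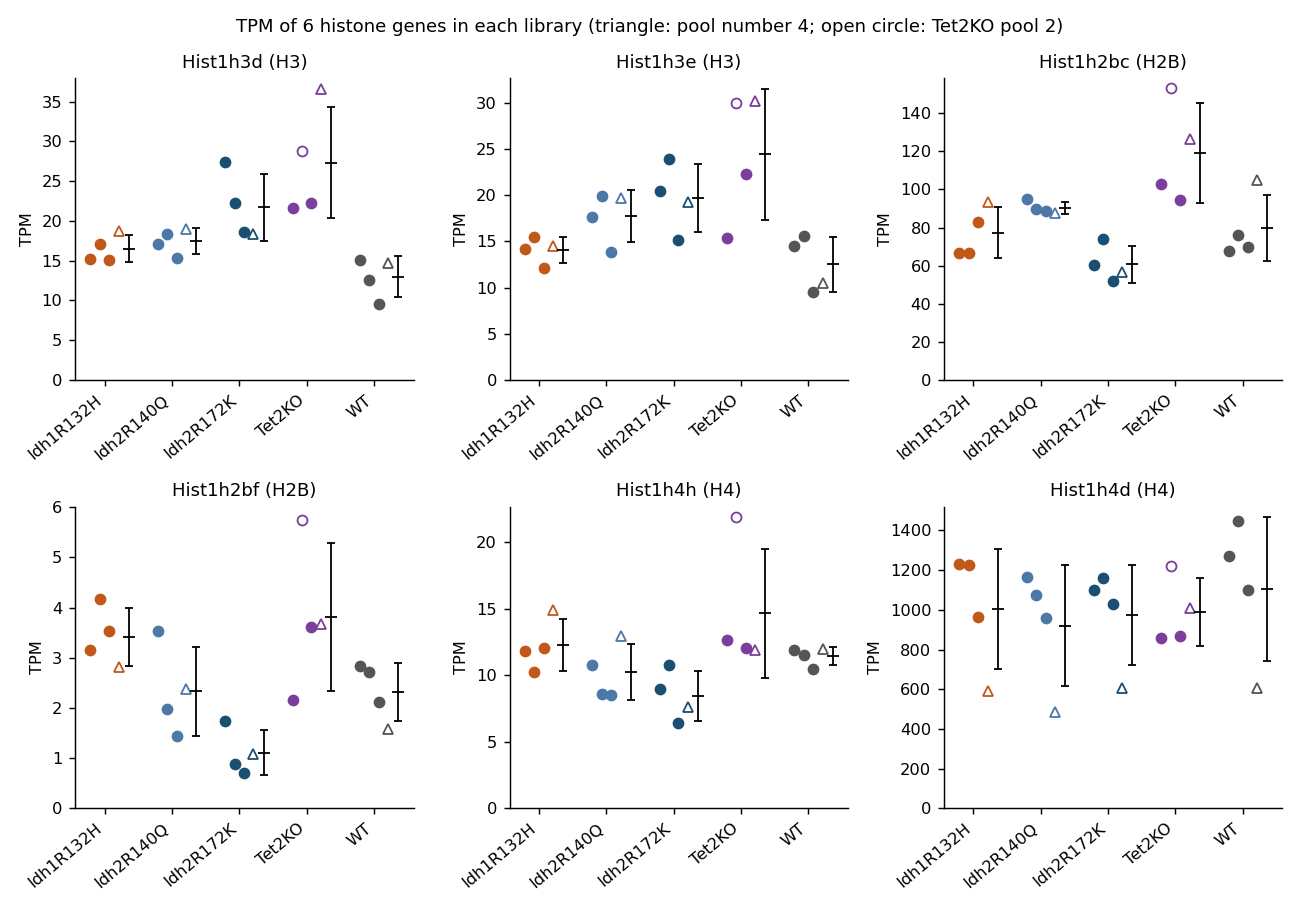
TPM of 6 members in every library, by group; triangles are pool number 4, the open circle is Tet2KO pool 2 and black bars are the mean ± SD (n = 4). Hist1h3d and Hist1h3e are highest in Tet2KO (means 27.3 and 24.4 TPM, against 13.0 and 12.5 TPM in WT), Hist1h2bc, Hist1h2bf and Hist1h4h separate Tet2KO from Idh2R172K, and Hist1h4d (989.6 TPM in Tet2KO and 1107 TPM in WT) overlaps in all groups.

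A test for any difference among the 5 groups called 5 members, where 23.1% of all genes were called, and 10 passed an unadjusted p of 0.05, against 37.8% of all genes. These were Hist1h3d (adjusted p = 0.00319), Hist1h2bc (0.00436), Hist1h2bf (0.00649), Hist1h4m (0.00712) and Hist1h3e (0.0199). Hist1h4m, an H4 gene, had 7.41, 6.87, 12.0 and 1.82 TPM in Idh1R132H, 0.192, 0.174, 0 and 0 TPM in Idh2R140Q, 0.362, 2.04, 4.08 and 3.54 TPM in Idh2R172K, 1.13, 2.90, 5.90 and 3.81 TPM in Tet2KO, and 2.03, 0, 0 and 2.50 TPM in WT. It was highest in 3 of 4 Idh1R132H libraries and near 0 in Idh2R140Q, and it varied within groups by more than most members. Its log2 difference of 1.96 ± 0.52 in Idh1R132H against WT (unadjusted p = 0.00134) was not called after adjustment over all genes. Only 10.2% of its 50-base stretches occur in no other gene, so its reads may belong in part to other H4 genes.

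Where nothing was called, the members with the smallest unadjusted p were as follows. In Idh1R132H against WT, after Hist1h4m and Hist1h3d, Hist1h4b differed by 0.43 ± 0.22, Hist1h2ah, an H2A gene, by 0.46 ± 0.24, and Hist1h2bf by 0.42 ± 0.23 on the log2 scale. In Idh2R140Q against WT, Hist1h2ad, an H2A gene, differed by 0.55 ± 0.22 (3.92 ± 0.778 TPM against 2.37 ± 0.545 TPM in WT), Hist1h3e by 0.49 ± 0.20, Hist1h4k, an H4 gene, by -0.46 ± 0.21, and Hist1h4b by 0.44 ± 0.22. None of these is distinguishable from WT after adjustment. Libraries did not overlap WT in 0 members in Idh1R132H (1.71% of all genes). They did not in 2 members in Idh2R140Q, Hist1h2ad and Hist1h3d, both higher (2% of all genes). They did not in 4 members in Idh2R172K, Hist1h3d, Hist1h4i and Hist2h3c2, higher, and Hist1h2bb, lower (22.8% of all genes). In Tet2KO these were 3 members, Hist1h2ac, Hist1h2be and Hist1h3d, all higher (13.6% of all genes). Of the members named for Idh2R172K, Hist2h3c2 averaged 1.15 TPM there and 0.610 TPM in WT, near the limit of 1 TPM. Its membership rests on the groups in which it was higher, so its separation carries no weight. Tet2KO did not overlap Idh2R172K in the 3 called members (25.5% of all genes). Idh2R172K did not overlap Idh2R140Q in 4 members, Hist1h4i and Hist1h4m, higher, and Hist1h2bc and Hist1h4b, lower (17.1% of all genes).

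Without the 5 libraries that stood apart, more members were called in Tet2KO cells, in both directions. With 3 libraries left in each group, 15 members were called in Tet2KO against WT, 8 higher and 7 lower, or 27.3% of members where 31.8% of all genes were called. All 3 members called with all libraries were among them. Hist1h1b had 78.5 ± 10.1 TPM in Tet2KO and 154 ± 25.1 TPM in WT (SD, n = 3), a log2 difference of -0.96 ± 0.12. Hist1h1e had 104 ± 8.39 TPM in Tet2KO and 150.3 ± 12.4 TPM in WT, a log2 difference of -0.53 ± 0.12. Hist1h4d had 912 ± 85.9 TPM in Tet2KO and 1274 ± 175 TPM in WT, a log2 difference of -0.48 ± 0.12. Hist1h1c, an H1 gene, had 63.7 ± 9.51 TPM in Tet2KO and 32.7 ± 2.20 TPM in WT, a log2 difference of 0.93 ± 0.16, and Hist1h2bg had 43.9 ± 10.9 TPM in Tet2KO and 20.4 ± 1.67 TPM in WT, a log2 difference of 1.05 ± 0.20. With all libraries these 5 genes were not called in Tet2KO against WT. In pool 4 of the Idh groups and WT, described below, the same 5 genes differed from pools 1 to 3 in the same directions. These 5 were chosen from the 15 after their values were seen. Most of the other called members went the same way, but Hist1h4m and Hist1h3e, higher in Tet2KO, had pool 4 ratios of 0.67 and 0.997. Hist1h2ae and Hist1h2ab, lower in pool 4, were not called in Tet2KO. Gm23935 took 9.57 to 10.9% of TPM in the Tet2KO pools left and 12.0 to 13.5% in WT pools 1 to 3. It was lower in pool 4 of the other groups too. Whether these Tet2KO differences and the pool 4 pattern share an origin was not tested.

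In Idh2R172K against WT the same omission left 5 members called (9.09% of members, 32.7% of all genes), Hist1h3d, Hist1h4i and Hist3h2ba, higher, and Hist1h2bf and Hist2h2ac, lower, of which Hist1h3d was called with all libraries. In Idh2R172K against Idh2R140Q it left 2 members called, where 20.3% of all genes were, and 1 of them was called with all libraries. Idh1R132H and Idh2R140Q had 0 calls among members with these libraries left out too. The 3 members that separated Tet2KO from Idh2R172K remained among the 10 then called (18.2% of members, 35.1% of all genes).

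Pool number 4 of the 3 Idh groups and WT held a different balance of histone RNA from pools 1 to 3 of the same groups. Hist1h4d averaged 572 TPM in these 4 libraries (484 to 606) and 1145 TPM in the other 12 (959.5 to 1449), a ratio of 0.50. Hist1h1e averaged 84.7 TPM against 155 TPM, Hist1h1b 82.7 TPM against 147 TPM, Hist1h3i 36.8 TPM against 61.8 TPM and Hist1h2ae 116 TPM against 193 TPM. In the other direction Hist1h1c averaged 102 TPM (78.6 to 121) against 34.5 TPM (26.1 to 48.9), a ratio of 2.94, and Hist1h2bg 61.4 TPM (40.4 to 85.8) against 23.8 TPM (18.1 to 36.1), a ratio of 2.58. In all, 6 members were lower in every pool 4 than in any of the 12 and 3 were higher, where 1.57% and 18.5% of all genes were. The third higher member was Hist3h2ba, an H2B gene (11.1 TPM against 6.30 TPM). These genes were chosen after their values were seen.

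The facing pair Hist1h2ae and Hist1h2bg, whose starts lie 175 bases apart in the window printed above, therefore lay on opposite sides of 1, with ratios of 0.60 and 2.58. The other facing pair printed, Hist1h2ac and Hist1h2bc, had ratios of 1.11 and 1.16. By class, the ratio of summed TPM was 0.820 for H1, 0.716 for H2A, 1.31 for H2B, 0.806 for H3 and 0.545 for H4. Over genes whose models run more than 100 bases past the stem-loop the median ratio was 1.01, and over those that stop within 100 bases it was 0.902, against 1.17 over all genes. In the same libraries the ratio was 0.639 for Gm23935, 1.01 for the replication clamp gene Pcna, 1.23 for the proliferation marker Mki67, 1.19 for Slbp and 8.58 for the immediate early gene Fos (365 TPM against 42.6 TPM). The part of these differences in the histone values was not tested.

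**Figure D5:**
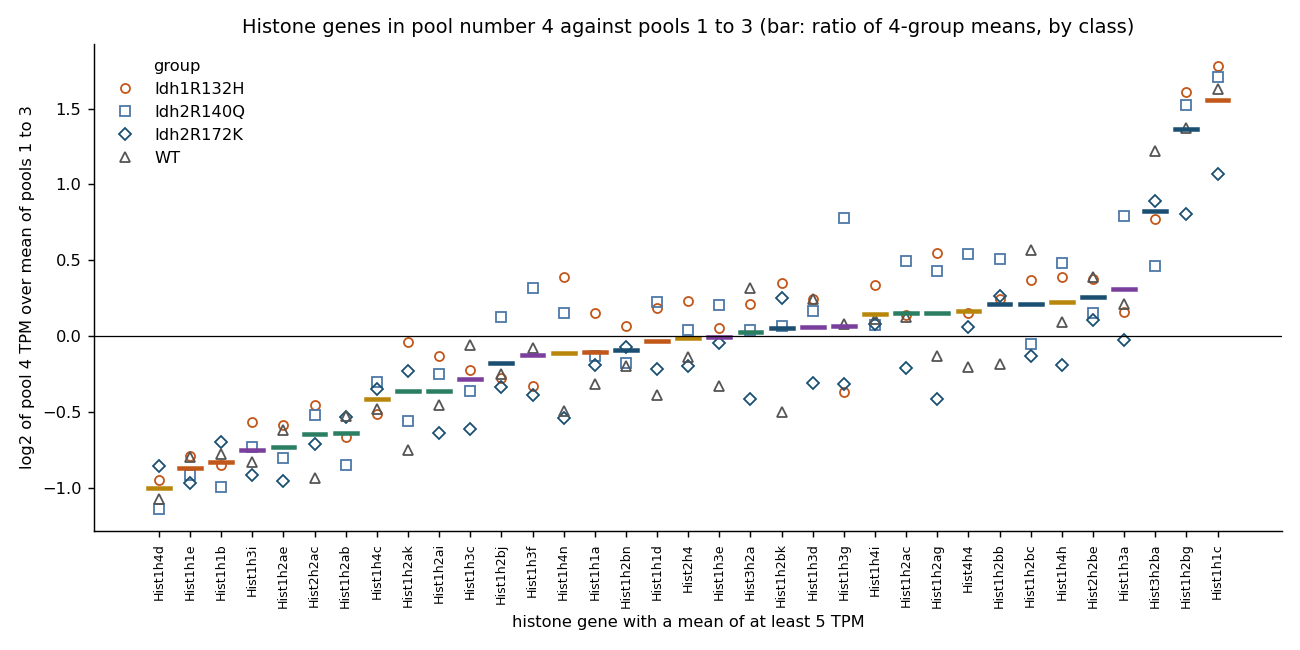
Log2 ratio of TPM in pool number 4 to the mean of pools 1 to 3 for members with a mean of at least 5 TPM; points are the 3 Idh groups and WT and bars are the ratio of the 4-group means, coloured by class. Hist1h1c and Hist1h2bg lie highest (ratios of 2.94 and 2.58) and Hist1h4d lowest (0.50), with all 4 groups on the same side of 0 for these genes.

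Genes that make, process and use histone RNA were described by list, with the calls of the same fit. Counts with all libraries are to be read against the shares of all genes called with all libraries. Of all genes, 7.33% were called lower in Idh2R172K and 2.02% in Tet2KO, and 8.03% and 5.02% were called higher. Tet2KO pool 2, 1 of the libraries that stood apart, was low in several of these genes, so values without the 5 libraries are given where they differ. In Idh1R132H and Idh2R140Q cells 0 genes of these lists were called. Of 32 genes of 3′ end processing and decay, 1 rose and 1 fell in Idh2R172K against WT, Lsm10 of the U7 snRNP (0.31 ± 0.09 on the log2 scale, adjusted p = 0.0306) and the spliceosomal and U7 ring protein gene Snrpb (-0.19 ± 0.06, adjusted p = 0.0280). In Tet2KO against WT 0 rose and 2 fell, Eri1, the exonuclease that trims histone mRNA ends (-0.61 ± 0.17, adjusted p = 0.0377), and Ncbp1 of the cap-binding complex (-0.55 ± 0.16, adjusted p = 0.0450). Eri1 was at 37.1 TPM in Tet2KO pool 2 and Ncbp1 at 56.6 TPM, and without the 5 libraries the log2 differences were -0.33 and -0.31. In the list, 8 then rose and 2 fell in Tet2KO, and 9 rose and 5 fell in Idh2R172K. These counts are to be read against larger shares. With the 5 libraries left out, 31.8% of all genes were called in Tet2KO and 32.7% in Idh2R172K, in either direction. Slbp averaged 71.7 ± 7.38 TPM in Idh1R132H, 70.3 ± 6.32 in Idh2R140Q, 68.3 ± 6.33 in Idh2R172K, 70.8 ± 7.79 in Tet2KO and 73.0 ± 8.46 TPM in WT (SD, n = 4), and was called in none.

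Of 23 genes of histone transcription and its control, 0 were called in Idh2R172K against WT, and 2 fell in Tet2KO, Ccna2 (-0.62 ± 0.14, adjusted p = 0.0187) and Ccne2 (-0.58 ± 0.15, adjusted p = 0.0333), the cyclins A2 and E2 that drive S phase. Without the 5 libraries these were -0.45 and -0.36, with 4 genes of the list higher and 5 lower in Tet2KO, and 6 higher and 1 lower in Idh2R172K. The shares of all genes then called were 31.8% in Tet2KO and 32.7% in Idh2R172K, in either direction. Npat averaged 28.5 ± 11.4 TPM in Tet2KO, 45.8 ± 3.40 TPM in Idh2R172K and 37.0 ± 4.52 TPM in WT. It was lower in Tet2KO than in Idh2R172K by 0.78 on the log2 scale (SE 0.24; adjusted p = 0.0231), with 12.0 TPM in Tet2KO pool 2, and by 0.38 without the 5 libraries. With all libraries it was not called against WT in either. Casp8ap2, which encodes the NPAT partner FLASH, differed by -0.01 ± 0.18 in Tet2KO and 0.28 ± 0.18 in Idh2R172K against WT and was not called.

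Of 40 genes of DNA replication and S phase, 0 rose and 8 fell in Idh2R172K against WT, with a list median of -0.24. Rrm2, a subunit of ribonucleotide reductase, fell most (121 ± 6.08 TPM in Idh2R172K and 220 ± 20.3 TPM in WT; -0.86 ± 0.12, adjusted p = 3.77e-05), and the clamp loader gene Rfc4 (-0.53), the dUTPase gene Dut (-0.46) and the helicase component Gins1 (-0.39) followed. In Tet2KO against WT 2 fell, Rrm2 (-0.44 ± 0.12, adjusted p = 0.0329) and the flap endonuclease gene Fen1 (-0.44 ± 0.12, adjusted p = 0.0394). Without the 5 libraries these were -0.26, no longer called, and -0.25, with 3 genes of the list higher and 2 lower in Tet2KO and 0 higher and 11 lower in Idh2R172K. Of all genes, 31.8% were then called in Tet2KO and 32.7% in Idh2R172K, in either direction. Pcna differed by -0.21 ± 0.08 in Idh2R172K and 0.01 ± 0.08 in Tet2KO against WT and was called in neither. Of 30 genes of mitosis and G2/M, Mad2l1 fell in Idh2R172K and Plk1 and Ccnb1 fell in Tet2KO, of which Ccnb1 was not called without the 5 libraries, and Mki67 was called in neither. In the same Idh2R172K cells the sum over the 55 histone members averaged 2126 TPM, against 2263 TPM in WT, within the spread of the groups.

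Of 11 measured genes listed as replication-independent histone variants, 1 fell in Idh2R172K and 0 were called in Tet2KO. The gene that fell was H2afy2, the macroH2A2 gene, with 4.31 ± 2.03 TPM in Idh2R172K and 12.3 ± 3.22 TPM in WT. Its log2 difference was -1.35 ± 0.21 (adjusted p = 0.000167). H2afz, which encodes H2A.Z, differed by -0.33 ± 0.11 in Idh2R172K (adjusted p = 0.0505) and H3f3b, an H3.3 gene, by 0.35 ± 0.12 in Tet2KO (adjusted p = 0.0755), both above the threshold of 0.05. H3f3a, the other H3.3 gene, differed by 0.02 ± 0.08 in Idh2R172K and 0.09 ± 0.08 in Tet2KO, and the DNA damage variant gene H2afx by 0.01 ± 0.09 and -0.23 ± 0.09; neither was called. Of 26 histone chaperone genes, Nap1l1, which carries H2A and H2B, fell in Idh2R172K (-0.33 ± 0.07, adjusted p = 0.00467) and Ubn2, of the H3.3 chaperone HIRA complex, rose in Tet2KO (0.53 ± 0.13, adjusted p = 0.0225). Chaf1a, of the replication-coupled chaperone CAF-1, averaged 35.5 ± 11.6 TPM in Tet2KO, 74.5 ± 31.0 TPM in Idh2R172K and 63.6 ± 20.5 TPM in WT, and was called only between Tet2KO and Idh2R172K (-1.02 ± 0.31, adjusted p = 0.0242), a difference of -0.57 and not called without the 5 libraries. Without them H2afz fell in both Tet2KO and Idh2R172K, by 0.23 and 0.29 on the log2 scale, and H3f3b rose by 0.49 in Tet2KO.

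Markers of other cells moved with the groups. Of 9 measured red cell genes 5 rose and 2 fell in Tet2KO against WT, and the summed list came to 95.4 to 134 TPM in Tet2KO and 51.2 to 82.5 TPM in WT, with Ahsp under 1 TPM. Of 9 macrophage genes, C1qb and C1qc rose in Tet2KO (list sum 248 to 266 TPM in Tet2KO and 179 to 242 TPM in WT) and Cd68 fell in Idh2R172K (list sum 117 to 143 TPM), with Marco under 1 TPM. Between Tet2KO and Idh2R172K, 7 of 9 macrophage and 5 of 9 red cell genes were higher in Tet2KO and 0 were lower. Of all genes, 11.9% were called higher and 14.9% lower in this comparison. The B lineage sum had a median of 129 TPM in Tet2KO, 55.4 TPM in Idh2R172K and 100.3 TPM in WT, and of its 7 measured genes 2 rose and 2 fell in Idh2R172K against WT, with Igll1 reaching 25.7 TPM and Vpreb1 24.0 TPM in 1 Idh2R172K library. Of 3 measured T and NK genes, Cd4 and Klrb1c fell in Idh2R172K. Of 9 measured neutrophil genes 0 were called in either group. Among 12 measured non-polyadenylated RNAs Scarna2, a Cajal body RNA, rose in Tet2KO (0.89 ± 0.18, adjusted p = 0.0102) and in Idh2R172K (0.68 ± 0.18, adjusted p = 0.0124). Without the 5 libraries the calls of C1qc in Tet2KO and of Scarna2 in Idh2R172K ended, and 6 of the 7 red cell calls in Tet2KO against WT remained. Between Tet2KO and Idh2R172K, 6 of the 7 macrophage and 4 of the 5 red cell calls remained, where 35.1% of all genes were then called. The part of these differences in the histone values was not tested.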

How the data were processed

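RNA of sorted mouse LSK cells was sequenced in 20 libraries. The authors deposited 1 table of TPM values; per the submitters' processing notes, Trim Galore, STAR, featureCounts and the mm10 genome were used, and their versions, the annotation release and the strand setting are not given in the sources used here. Columns were matched to samples by their names. The Idh2R140Q columns carry an IDH1 prefix and were assigned by the mutation. Of the gene IDs, 849 were not in the GENCODE M21 annotation (at most 0.128% of a library's TPM).

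TPM values multiplied by exon length were whole multiples of 1 read, within 0.1 read, for 90.0 to 91.1% of low values, which gave the reads per library. TPM + 1 was log2-transformed and tested with limma 3.58.1 (R 4.3.3, intensity trend) in 1 fit of 5 groups, on 14176 genes averaging 1 TPM or more, 2-sided, with Benjamini-Hochberg adjustment, so that folds of low genes are understated. The fits were tested on simulated data. Summaries used Python 3.11.15 with numpy 2.4.6, pandas 2.3.3 and matplotlib 3.10.9. Differences are printed as the log2 value ± SE and group levels as the mean ± SD.

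Members, lists, tests and alternatives were chosen with earlier results of these data known. Named with values were called members (at most 10 per direction), the 5 smallest p where none was called, the top 2 of each class by level, the 3 genes on either side of 1 TPM, the extremes of variation in WT, and from each list up to 4 called genes plus 10 fixed genes. Hist1h1c and the pool number 4 values were added after the data were seen. The alternatives covered filters, pseudocounts, scalings, fits of fewer groups, a replicate block, library weights, limma-voom on rebuilt counts and omitted libraries. No sequence was read from the libraries.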

Additional observations from a re-analysis of the deposited data

Results flagged for a closer look

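In 130 checks of 4 libraries, 10 values lay further from the other 3 than Dixon's 95% limit for the gap over the range. The checks covered, by group, members called, smallest in p where none was, or leading their class, and class sums. Hist1h1c and Hist3h2ba were added after their pool 4 values were seen, and several of the 10 values are theirs. Chance gives about 1 in 20 only for genes not chosen by their values, so the count cannot be set against it. Hist1h1e had 92.2 TPM in Idh2R172K pool 4 and 175 to 191 TPM in the other Idh2R172K pools. Hist1h2bg had 66.5 TPM in Idh1R132H pool 4, against 18.1 to 24.4 TPM in the other Idh1R132H pools, and 52.7 TPM in WT pool 4, against 19.0 to 22.2 TPM in the other WT pools. Hist1h1c had 106 TPM in Idh1R132H pool 4, against 26.1 to 33.2 TPM in the other Idh1R132H pools, 121 TPM in Idh2R140Q pool 4, against 34.7 to 40.3 TPM, and 101 TPM in WT pool 4, against 31.1 to 35.2 TPM. Hist3h2ba had 15.3 TPM in Idh2R172K pool 4, against 7.75 to 8.54 TPM in the other Idh2R172K pools, and 24.5 TPM in Tet2KO pool 2, against 8.88 to 11.4 TPM in the other Tet2KO pools. Hist1h3i had 78.7 TPM in Tet2KO pool 2 and 42.0 to 48.0 TPM in the other Tet2KO pools. Hist1h4h had 21.9 TPM in the same Tet2KO pool and 11.9 to 12.7 TPM in the others.

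In 3 members the means of Tet2KO and Idh2R172K lay on opposite sides of WT and the contrast of these groups was called, although of the 6 differences from WT only that of Hist1h2bc in Tet2KO was. The Tet2KO label also names no Vav-Cre, which the Idh2R172K and WT groups carry. The log2 difference of Tet2KO minus Idh2R172K was 0.95 for Hist1h2bc, 1.16 for Hist1h2bf and 0.71 for Hist1h4h.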

How the results depend on the processing

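Idh1R132H and Idh2R140Q kept 0 called members in each of the 33 alternatives run. In Idh2R172K against WT, 2 members called became 1 with no filter, with a mean of at least 5 TPM, with median-of-ratios scaling, with TPM rescaled without histone, mitochondrial and top 20 genes, with limma-voom on rebuilt counts and without all number 4 libraries (an alternative added after seeing the data); 0 with quantile scaling; 6 with library weights; 1 to 5 without 1 replicate; and 5 without the 5 libraries that stood apart. In Tet2KO against WT, 3 became 5 with rescaled TPM and with limma-voom, 0 in a fit of these groups only, 16 with library weights, 6 without all number 4 libraries, 1 to 9 without 1 replicate and 15 without the 5 libraries. In Tet2KO against Idh2R172K, 3 became 9 with library weights, 6 without all number 4 libraries, 3 to 5 without 1 replicate and 10 without the 5 libraries. In Idh2R172K against Idh2R140Q, 2 became 1 with no filter, with a mean of at least 5 TPM, with quantile scaling and with rescaled TPM, 0 with median-of-ratios scaling, limma-voom and without all number 4 libraries, and 0 to 3 without 1 replicate. For any difference, 5 became 3 with a mean of at least 5 TPM, 21 with library weights, 8 without all number 4 libraries, 4 to 7 without 1 replicate and 15 without the 5 libraries. The cause was not tested.

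Same-numbered libraries correlated by -0.20 to 0.54 in their deviations from group means, 14 of 20 best with their own number, a hint that numbers are shared. The 0.54 lies within number 4. Numbers 1 to 3 reached at most 0.25, and libraries of different numbers ranged from -0.63 to 0.26. As not every pair passed 0.1 and the labels give no shared origin, the numbers are not treated as pairs. With the replicate block, calls came to 4 in Idh2R172K, 7 in Tet2KO, 6 in Tet2KO against Idh2R172K, 1 in Idh2R172K against Idh2R140Q and 11 for any difference.

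Depth limits the low members, since Hist1h4b had 5.90, Hist1h4m 14.3 and Hist1h2bf 15.3 reads per library. Sequence limits others, since 25 of the 55 share over 50% of their 50-base stretches with another gene, and how shared reads were counted is not given in the sources used here.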
